A study of Mus musculus with 12 samples.

Results

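The genes described here are 10 genes of the circadian clock, namely Arntl, Clock, Per1, Per2, Per3, Ciart, Nr1d1, Nr1d2, Dbp and Tef. They were chosen by symbol as known parts of the clock, though with earlier results of these data known. Each matched 1 of the 46078 gene IDs in the deposited table. All 10 passed the filter on low values, a mean of at least 10 normalized counts, as did 17496 IDs in all. The comparison asked for was that of the clock's output genes with its activator Arntl in every library, which bears on whether libraries differ in the time of day at dissection. No label used here gives that time.

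Hippocampal RNA of C57BL/6 mice, all at postnatal day 25, was sequenced in 4 groups of 3 libraries. These were wild-type males, wild-type females, and males and females that were heterozygous for the mutation labelled CHD8 Asn2373LysfsX2, a frameshift in the gene of a chromatin remodelling enzyme. The labels name no treatment, and all 12 libraries shared strain, age and tissue. Whether each library is a separate mouse is not stated either, so a p-value here weighs a difference against the spread of libraries, and part of that spread may be technical. The values are read counts scaled by a size factor of each library, called normalized counts. In RNA from whole tissue, fewer cells of a type and less RNA per cell cannot be told apart.

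The circadian clock is a feedback loop of transcription that runs in most cells of the body. ARNTL (also called BMAL1) and CLOCK bind E-boxes as a pair and activate the Per genes, Ciart, Nr1d1, Nr1d2, Dbp and Tef, and the PER proteins then repress that pair. NR1D1 and NR1D2 repress Arntl, so that in most tissues the RNA of Arntl peaks in antiphase to that of Dbp and Nr1d1, while DBP and TEF act on D-boxes, among others in the Per genes.

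Motifs of the loop were looked for in the 250 bases before each RefSeq start site (build GRCm38.p6), because they are the letters through which the activators and outputs are connected. 9 of the 10 genes had 14 promoters in the table, and Per2 had none. The words searched, on both strands, were CACGTG for the E-box, CACGTT for a variant of it called the E′-box, TTATGTAA or TTACGTAA for the D-box, and TAGGTCA or TGGGTCA for the element bound by ROR and NR1D proteins. Of 32851 promoters of this length in the table, 6.02% held the E-box word, 3.85% the E′-box word, 0.931% a D-box word and 5.38% a ROR word. Of the 14 promoters of the members, 4 held an E-box word (in 3 genes), 1 the E′-box word (Nr1d1), 1 a D-box word at 2 positions (Per3) and 0 a ROR word. The windows below run 5′ to 3′ on the gene's strand, with the word in capitals and its distance to the start site counted from its first base.
Per1, E-box 166 bases before an internal start site, chr11:69098772-69098799, plus strand: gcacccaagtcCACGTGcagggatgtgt
Ciart, E-box 116 bases before the start, chr3:95882328-95882355, minus strand: gcatctagagtCACGTGttgccggtaag
Ciart, E-box 58 bases before the start, chr3:95882270-95882297, minus strand: gcagggggaggCACGTGcagaaccgcac
Ciart, E-box 44 bases before the start, chr3:95882256-95882283, minus strand: gtgcagaaccgCACGTGtctgggagggg
Nr1d1, E′-box read on the other strand 28 bases before the start, chr11:98775389-98775416, minus strand: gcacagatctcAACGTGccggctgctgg
Tef, E-box 138 bases before its second start, chr15:81811265-81811292, plus strand: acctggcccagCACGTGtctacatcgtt
Tef, E-box 127 bases before its first start, chr15:81802535-81802562, plus strand: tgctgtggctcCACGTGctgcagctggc
Per3, D-box 205 bases before the start, chr4:151044852-151044881, minus strand: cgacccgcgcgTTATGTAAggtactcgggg
Per3, D-box 158 bases before the start, chr4:151044805-151044834, minus strand: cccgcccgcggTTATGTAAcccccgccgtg

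The Tef window before the first start lay over an exon of Tef and of the antisense gene Gm17597. The Per3 windows lay inside Camta1 and touched no exon. Those of Ciart lay inside the antisense gene C920021L13Rik and also touched no exon. A match is a description of the letters, and the windows of Arntl, Clock, Nr1d2 and Dbp held none of these words, which says nothing of sites elsewhere.

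Facts of the whole series that touch the clock genes are the following. Chd8, the targeted gene, had 2750.5 to 2994 normalized counts in the 6 wild-type libraries and 2383 to 2513 in the 6 mutant libraries, without overlap, and was the only gene past an adjusted p of 0.05 in the genotype effect averaged over sexes (0.0289, limma). Each mutant library held 23721482 to 24654408 reads and each wild-type library 26912998 to 33327314, so depth and genotype cannot be told apart. The 8 markers of hippocampal neurons had a mean log2 level of 12.29 to 12.52 in all 12 libraries. The 12 markers of choroid plexus, a tissue of the adjoining ventricle, had a mean log2 level of 5.19 for wild-type female 1, 5.34 for mutant male 2 and 5.77 for mutant male 3, against 9.56 to 11.32 elsewhere. Of 6 markers of the suprachiasmatic nucleus, the seat of the central clock, 4 (Avp, Six6, Nms and Prok2) had a median under 10 normalized counts and were at 0 in at least 1 library.

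All 10 genes were clearly expressed in the hippocampus at levels that differed by more than 10 times between genes. Per kilobase of exon, the scale on which genes can be compared, Tef was highest, with a median of 1301 normalized counts per kilobase over the 12 libraries (range 1192 to 1352). Nr1d1 followed with a median of 626 (581 to 698) and Nr1d2 with 509.5 (467 to 542). Dbp, with 355 (288 to 428), and Per1, with 352 (331 to 424), overlapped and could not be ordered. Clock lay below them with 252 (242 to 263), followed by Per3 with 205 (188 to 221) and Per2 with 192 (164 to 220.3), which overlapped each other. Ciart, with 114 (94.8 to 134), and the activator Arntl, with 96.2 (83.1 to 107), were lowest and overlapped.

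Of the activators, Arntl was the more variable between libraries and Clock the steadiest of the 10 genes. Arntl (chr7:113207465-113314126, plus strand, GRCm38) had 717, 662 and 731 normalized counts in the wild-type males, 694, 739 and 773 in the mutant males, 759, 809 and 625 in the wild-type females, and 747, 687 and 706 in the mutant females. Both its highest and its lowest value were thus in wild-type females, whose range enclosed the values of the other 9 libraries. Clock (chr5:76209868-76304792, minus strand), its partner, had 3422, 3579.8 and 3609.7 normalized counts in the wild-type males, 3365, 3528 and 3475 in the mutant males, 3539.8, 3539.9 and 3335 in the wild-type females, and 3318, 3439 and 3455 in the mutant females. All 4 groups overlapped for both genes, and the highest Clock value was 1.09 times the lowest.

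The Per genes encode the repressors of the loop, and Per1 differed most of the 10 between males and females. Per1 (chr11:69095217-69109960, plus strand) had 2138, 2339 and 2386 normalized counts in the wild-type males, 1977, 2206 and 2367 in the mutant males, 1901, 1861 and 1899.6 in the wild-type females, and 1992, 1977 and 1956 in the mutant females. The wild-type males lay above every female, while mutant male 1 lay among the mutant females. Per2 (chr1:91415982-91459324, minus strand) had 1056, 1288 and 1160.5 in the wild-type males, 1104, 1158 and 1289.8 in the mutant males, 959.6, 1131 and 970.1 in the wild-type females, and 1119, 1052 and 1140.4 in the mutant females. Its groups all overlapped, with wild-type females 1 and 3 below all other libraries. Per3 (chr4:151003652-151044665, minus strand) ranged from 1803 in mutant female 3 to 2125 in mutant female 2, so that a single group held both ends of its range. Ciart (chr3:95878503-95882251, minus strand), a further repressor of the activator pair, had 273, 248 and 239 in the wild-type males, 304, 259 and 279 in the mutant males, 214, 293 and 256 in the wild-type females, and 238, 258 and 281 in the mutant females. It was the lowest in counts of the 10 and its 4 groups overlapped.

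Nr1d1 and Nr1d2 (REV-ERBα and REV-ERBβ) are the nuclear receptors that repress Arntl. Nr1d1 (chr11:98767932-98775333, minus strand) had 1877, 1846 and 1787.5 normalized counts in the wild-type males, 1914, 2041 and 1892 in the mutant males, 2079, 1939.6 and 1856 in the wild-type females, and 2134, 2148 and 2140.5 in the mutant females. In each sex the 3 mutant libraries lay above the 3 wild-type libraries, and within the mutants the females lay above the males. Nr1d2 (chr14:18204054-18239127, minus strand) had 2932, 2904 and 2743 in the wild-type males, 2922, 2794 and 2708 in the mutant males, 2673, 2769 and 2602.5 in the wild-type females, and 2813, 2677 and 2525 in the mutant females, and the genotypes overlapped in both sexes.

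Dbp and Tef encode activators of D-boxes. Dbp (chr7:45705088-45710203, plus strand) had 1083, 925 and 863 normalized counts in the wild-type males, 1281, 1132 and 1125 in the mutant males, 998, 970.2 and 1044 in the wild-type females, and 1250.4, 1117 and 976 in the mutant females. The 3 mutant males lay above the 3 wild-type males, and in females mutant 3 fell among the wild-type libraries. Tef (chr15:81802421-81826863, plus strand) ranged from 9381 in mutant female 3 to 10639.9 in wild-type male 2, and its groups overlapped. Dbp had the widest range of the 10, with a highest value 1.48 times the lowest, and the median of this ratio over the 10 genes was 1.24.

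**Figure D1:**
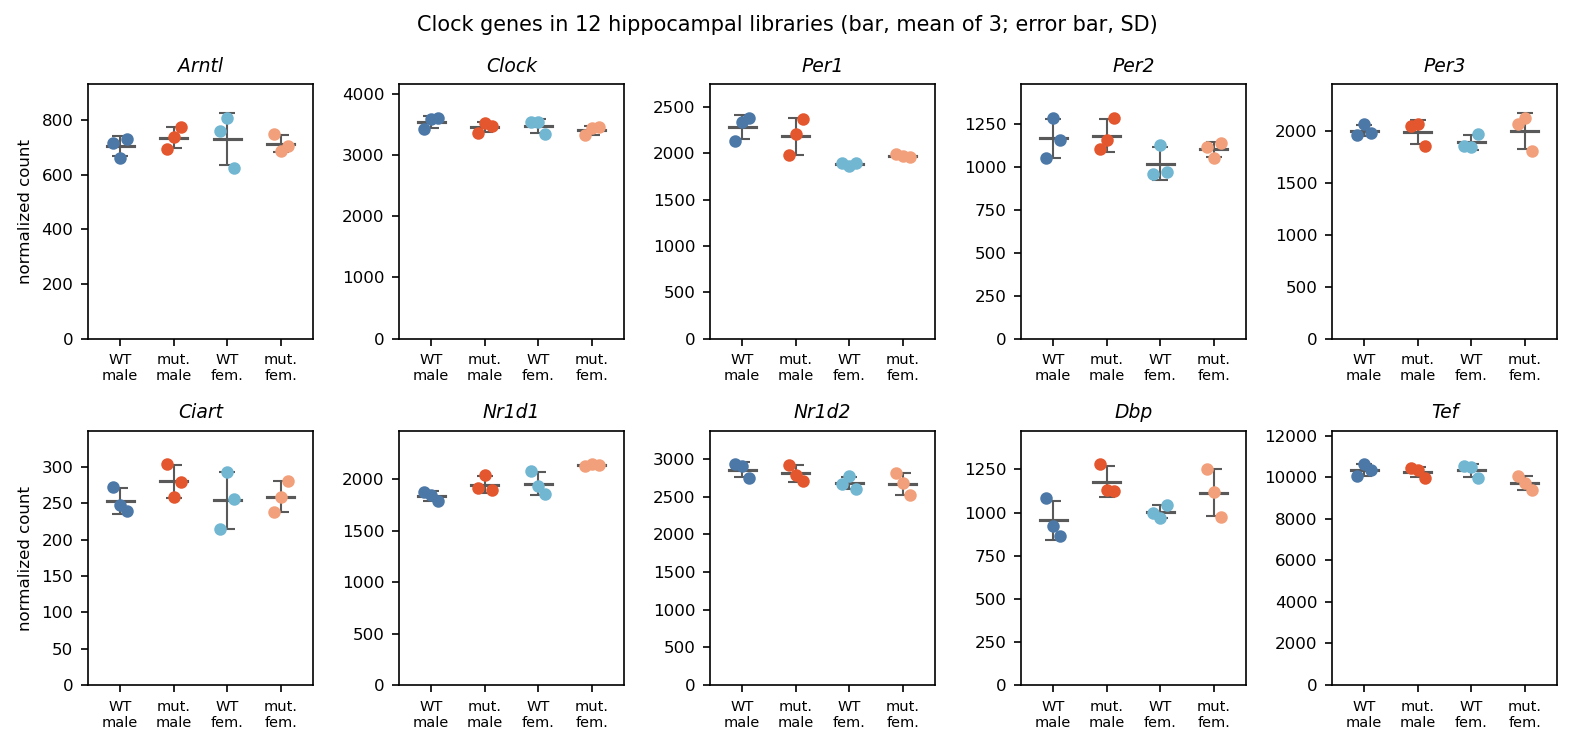
Normalized counts (vertical axes from 0) of each of the 10 genes in the 12 libraries, by group on the horizontal axes (WT, wild type; mut., Chd8 mutant; fem., female). Points are libraries, thick bars the means of 3 and error bars the SD; the 3 mutant libraries of Nr1d1 lie above the 3 wild-type libraries in both sexes, those of Dbp in males.

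Some reads of these genes may belong to a neighbour, since the library kit named in the labels does not keep the strand. Exons of Nr1d1 shared 263 bases, 8.55% of their length, with Thra on the opposite strand, and Thra had a mean of 18258 normalized counts. Exons of Dbp shared 539 bases, 18.0% of their length, with Sphk2, which had a mean of 730.0 normalized counts. Tef shared 193 bases (2.45%) with Gm17597 and Arntl 33 bases (0.439%) with Gm45355. Thra differed between genotypes by a log2 fold change of 0.12 ± 0.038 (SE) in males (limma, unadjusted p = 0.0101, adjusted p = 0.419) and 0.0029 ± 0.038 in females (adjusted p = 0.994). Averaged over the sexes it was 0.059 ± 0.027 (limma, unadjusted p = 0.0472, adjusted p = 0.552). No genotype difference is given here for Sphk2, and the part of shared reads in Nr1d1 and Dbp was not tested.

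The comparison of mutant with wild type asks whether heterozygous Chd8 mutation changes gene expression in the hippocampus. Averaged over the sexes, Dbp and Nr1d1 were the 2 members furthest from 0, both higher in mutants, and neither passed the threshold over all genes. Dbp had means of 957 ± 113 (SD, n = 3) in wild-type and 1179 ± 88.2 in mutant males, and of 1004 ± 37.3 and 1115 ± 137 in females. Its log2 fold change was 0.22 ± 0.068 (SE), which is 16.9% higher in mutants (95% interval 5.46% to 29.5%), with an unadjusted p of 0.00620 and an adjusted p of 0.379 by limma. It lay above the wild-type mean of its sex in 5 of 6 mutant libraries. For Nr1d1 the means were 1837 ± 45.2 and 1949 ± 80.4 in males, and 1958 ± 112 and 2141 ± 7.04 in females. Its log2 fold change was 0.11 ± 0.032, or 7.74% (95% interval 2.66% to 13.1%), with an unadjusted p of 0.00563 and an adjusted p of 0.368, and 6 of 6 mutant libraries lay above the wild-type mean of their sex.

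The other 8 members had log2 fold changes from -0.049 (Tef) to 0.091 (Ciart) in this average, with 95% intervals that all included 0. The activators did not pass the test, at 0.018 ± 0.060 for Arntl (95% interval -0.11 to 0.15) and -0.031 ± 0.026 for Clock (-0.087 to 0.026). Values were 0.069 ± 0.060 for Per2, 0.035 ± 0.044 for Per3, -0.0022 ± 0.042 for Per1 and -0.016 ± 0.033 for Nr1d2. Of 6 mutant libraries, those above the wild-type mean of their sex numbered 5 for Ciart and 4 for each Per gene. They numbered 3 for Arntl, 2 for Nr1d2 and for Tef, and 0 for Clock, where all 6 lay below. By limma, 0 of 10 members passed an adjusted p of 0.05, against 0.00572% of all genes tested, and 2 of 10 had an unadjusted p under 0.05, against 8.87% of all genes. The median log2 fold change was 0.027 over the members and -7.3e-05 over all genes. DESeq2 and edgeR also called 0 of the 10, with adjusted p-values of 0.149 for Dbp and 0.236 for Nr1d1 by DESeq2. Over all settings tried the adjusted p ran from 0.149 to 0.658 for Dbp and from 0.203 to 0.648 for Nr1d1.

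Within males, Dbp was 23.6% higher in mutants (95% interval 6.90% to 42.9%; log2 fold change 0.31 ± 0.096, unadjusted p = 0.00787, adjusted p = 0.418 by limma). Nr1d1 differed by 0.085 ± 0.045 on the log2 scale there (adjusted p = 0.544). The activators were at 0.064 ± 0.085 (Arntl) and -0.033 ± 0.037 (Clock). The repressors were at -0.070 ± 0.059 (Per1), 0.021 ± 0.084 (Per2), -0.0096 ± 0.062 (Per3) and 0.15 ± 0.12 (Ciart), and Nr1d2 was at -0.026 ± 0.047 and Tef at -0.011 ± 0.038. In all, 1 of 10 members had an unadjusted p under 0.05, against 10.3% of all genes. 0 members passed the adjusted threshold, as did 0.0% of all genes. Groups that did not overlap, with mutants above wild type, were found for 2 of 10 members (Nr1d1 and Dbp), against 8.37% of all genes, and with mutants below for 0 members, against 7.68%. Choroid plexus markers moved with genotype in males, where 11 of 12 were lower in mutants with an unadjusted p under 0.05. Their summed level was 208556 to 258815 normalized counts in wild-type males and 6392 to 234123 in mutant males. When the mean level of these markers was added to the model, limma gave male differences of 0.38 ± 0.11 for Dbp (adjusted p = 0.490), 0.026 ± 0.049 for Nr1d1 (0.934), -0.14 ± 0.063 for Per1 (unadjusted p = 0.0403, adjusted p = 0.575) and 0.31 ± 0.12 for Ciart (unadjusted p = 0.0216, adjusted p = 0.539). Without mutant male 2, Nr1d1 was at 0.052 (adjusted p = 0.835).

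Within females, Nr1d1 was 9.43% higher in mutants (95% interval 2.20% to 17.2%; log2 fold change 0.13 ± 0.045, unadjusted p = 0.0140, adjusted p = 0.590 by limma). Tef had a log2 fold change of -0.086 ± 0.038 (unadjusted p = 0.0438, adjusted p = 0.698), and Dbp one of 0.14 ± 0.096 (adjusted p = 0.832). The value of Dbp was 0.057 without mutant female 1 and 0.24 without mutant female 3, and that of Per2, 0.12 ± 0.084, was 0.075 without wild-type female 1 and 0.19 without wild-type female 2. The other members were at 0.065 ± 0.059 (Per1), 0.080 ± 0.062 (Per3), 0.034 ± 0.12 (Ciart), -0.0062 ± 0.047 (Nr1d2), -0.027 ± 0.085 (Arntl) and -0.028 ± 0.037 (Clock). Here 2 of 10 members had an unadjusted p under 0.05, against 6.9% of all genes, and 0 passed the adjusted threshold, as did 0.0% of all genes. Mutants lay above wild type without overlap for Per1 and Nr1d1, 2 of 10 members against 5.14% of all genes, and below it for 0 members against 5.66%. Nr1d1 was the 1 member of 10 that did so in both sexes, against 0.532% of all genes. None of the 10 lay below in both sexes (0.6% of all genes did), or above in one sex and below in the other (0.674%). None had all 6 mutants above all 6 wild types (0.303%) or below them (0.24%).

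The genotype effects in males and females did not differ for any member past the threshold. By limma, 0 of 10 members passed an adjusted p of 0.05 for the male effect minus the female effect, as did 0.0% of all genes. An unadjusted p under 0.05 was found for 0 of 10, against 7.85% of all genes. The smallest adjusted p, 0.747, was that of Per1, whose difference was -0.13 ± 0.083 on the log2 scale. The differences of Dbp, 0.16 ± 0.14 (95% interval -0.13 to 0.46), and of Nr1d1, -0.045 ± 0.064 (-0.18 to 0.095), also included 0. Leaving out 1 library moved them to 0.070 (mutant female 3) and 0.25 (wild-type male 1) for Dbp and to -0.089 (wild-type female 1) and -0.0071 (wild-type female 3) for Nr1d1. That of Per1 moved to -0.20 without mutant male 3 and -0.066 without mutant male 1, and over all settings tried it ran from -0.28 to -0.066. The others were at 0.091 ± 0.12 (Arntl), -0.0052 ± 0.052 (Clock), -0.096 ± 0.12 (Per2), -0.089 ± 0.088 (Per3), 0.11 ± 0.16 (Ciart), -0.020 ± 0.067 (Nr1d2) and 0.074 ± 0.054 (Tef).

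**Figure D2:**
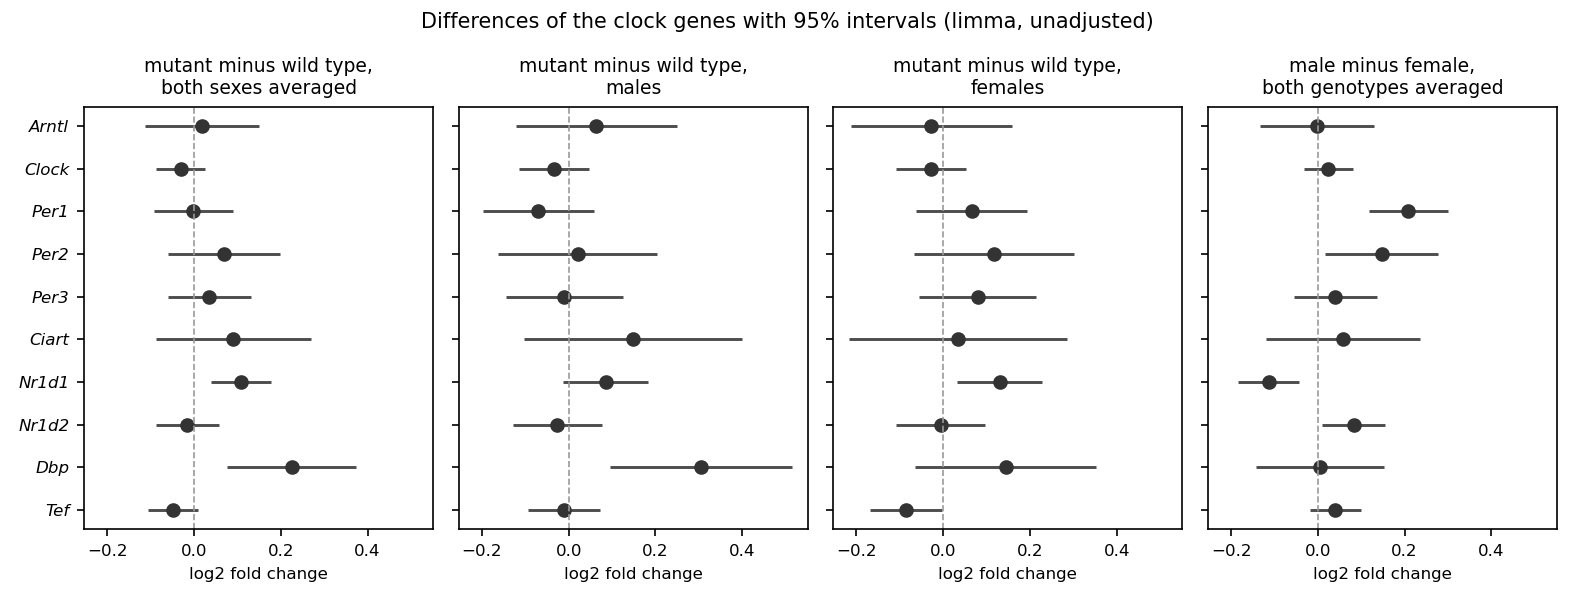
Log2 fold changes of the 10 genes (points; horizontal axes, log2 scale) with 95% intervals from limma (lines, not adjusted for the number of genes), for mutant minus wild type averaged over sexes, in males and in females, and for male minus female. In the averaged genotype effect the intervals of Nr1d1 and Dbp exclude 0, and in the sex effect those of Per1, Per2, Nr1d1 and Nr1d2 do.

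Markers of other cell types moved with genotype beside these values. All 6 oligodendrocyte markers were lower in mutants with an unadjusted p under 0.05, and their summed level in males was 367938 to 403044 normalized counts for wild type and 289673 to 375800 for mutants, and in females 411115 to 470150 and 349080 to 400641. Of 6 markers of pericytes and smooth muscle, 5 were higher in mutants by the same measure, with summed levels of 5769 to 6165 and 6258 to 8007 in males and of 5993 to 6476 and 6488 to 11046 in females, wild type first in each pair. Meningeal fibroblast markers were higher in mutants for 4 of 6, with summed levels of 2516 to 4944 and 2412 to 4955 in males and of 1943 to 2929 and 3652 to 8960 in females, wild type first. None of the markers of these lists was at 0 in any library, and their part in the values of Dbp and Nr1d1 was not tested. Without the 3 libraries low in choroid plexus markers, the averaged log2 fold change was 0.28 ± 0.089 for Dbp (adjusted p = 0.345) and 0.12 ± 0.033 for Nr1d1 (adjusted p = 0.260), both by limma. The mutant male arm is then mutant male 1 alone, the library highest in Dbp, and is assumed to vary like the other groups.

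Between the sexes, Per1 had the largest difference of the 10 genes, with higher values in males, and passed the threshold with DESeq2 but not with limma. Nr1d1 had lower values in males, and neither activator passed the test. Per1 had means of 2288 ± 132 (SD, n = 3) in males and 1887 ± 22.4 in females of the wild type, and of 2183 ± 196 and 1975 ± 17.9 in mutants. Its log2 fold change, male minus female averaged over genotypes, was 0.21 ± 0.042, or 15.5% (95% interval 8.48% to 23.0%), and 6 of 6 male libraries lay above the female mean of their genotype. The unadjusted p was 0.000305 and the adjusted p 0.161 by limma, so that Per1 did not pass over all genes. DESeq2, with an adjusted p of 0.00397, did call it, as it did 0.274% of all genes. Limma called it without mutant male 1, the male library with the lowest value (0.24 ± 0.034, adjusted p = 0.0206). Without the 3 libraries low in choroid plexus markers, where that same library is the only mutant male and is assumed to vary like the other groups, the difference was 0.14 ± 0.040 (adjusted p = 0.330). Over all the settings tried the adjusted p ran from 0.00397 to 0.513.

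Nr1d1 was 7.58% lower in males than in females (95% interval 3.00% to 11.9% lower; log2 fold change -0.11 ± 0.032, unadjusted p = 0.00397, adjusted p = 0.506 by limma), and 6 of 6 males lay below the female mean of their genotype. Per2, at 0.15 ± 0.060 (adjusted p = 0.683), and Nr1d2, at 0.083 ± 0.033 (adjusted p = 0.677), were higher in 6 of 6 males by the same measure. Arntl, at -0.0027 ± 0.060 (95% interval -0.13 to 0.13), Dbp, at 0.0054 ± 0.068 (-0.14 to 0.15), and Clock, at 0.025 ± 0.026 (-0.032 to 0.081), lay near 0. Per3 was at 0.040 ± 0.044, Ciart at 0.059 ± 0.082 and Tef at 0.040 ± 0.027. By limma 0 of 10 members passed the adjusted threshold, against 0.0686% of all genes, and 4 of 10 had an unadjusted p under 0.05, against 6.64%. No member had all 6 males above all 6 females, which 0.274% of all genes did, or below them, which 0.194% did. Per1 alone of the 10 separated wild-type males above wild-type females, as did 5.83% of all genes, and 0 members did so below, against 6.45%. Nr1d1 alone separated mutant males below mutant females, as did 5.85% of all genes, and 0 members did so above, against 6.86%.

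Per1 and Per2 are also induced by neuronal activity, and genes of that response were looked at in the same contrast. Of 12 activity-regulated genes, 9 had a positive log2 fold change in males, against 47.7% of all genes, with a median of 0.15 against -0.0037. An unadjusted p under 0.05 was found for 5 of the 12, all higher in males, against 6.64% of all genes. Egr2, a zinc-finger factor of the immediate early response, was the 1 gene of the 12 called, at 1.06 ± 0.13 (adjusted p = 0.00570, limma), with 45.4 to 64.5 normalized counts in males and 22.7 to 32.8 in females. Fos, at 0.42 ± 0.069 (adjusted p = 0.0635), had 229, 224 and 212 normalized counts in the wild-type males, 224, 220.1 and 264 in the mutant males, 169.8, 163 and 166 in the wild-type females, and 156, 183 and 184 in the mutant females. Fos and Egr2 were the 2 of the 12 with all 6 males above all 6 females. That held for 0.274% of all genes and not for Per1. Arc differed by 0.45 ± 0.10 (adjusted p = 0.240, limma). A negative log2 fold change was found for 3 of the 12, down to -0.17. The part of neuronal activity in the values of Per1 was not tested.

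**Figure D3:**
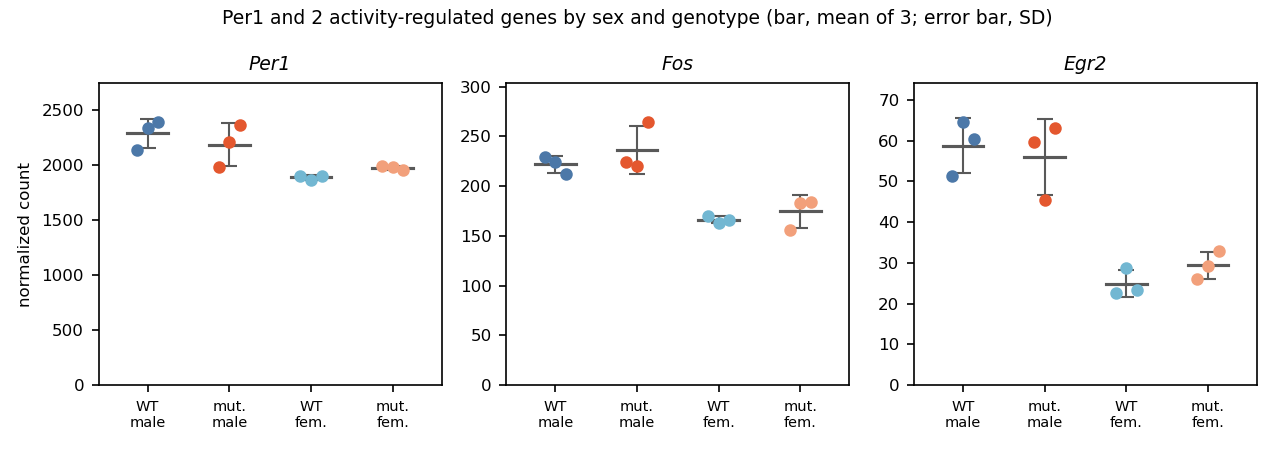
Normalized counts (vertical axes from 0) of Per1 and of the activity-regulated genes Fos and Egr2 in the 12 libraries by group; points are libraries, thick bars means of 3 and error bars SD. All 6 male libraries lie above all 6 female libraries for Fos and Egr2, the only 2 of 12 activity-regulated genes with that separation. For Per1 mutant male 1 lies among the females.

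Other markers moved with sex as well. All 5 red blood cell markers were higher in males with an unadjusted p under 0.05, with summed levels among wild types of 1435 to 2469 normalized counts for males and 748 to 1081 for females, and among mutants of 1712 to 1883 and 1267 to 1793. All 6 oligodendrocyte markers, with the summed levels given above, were lower in males by the same measure. Of 10 glucocorticoid-responsive genes, another input that acts on Per1, 2 were higher and 3 lower in males at an unadjusted p under 0.05. The share of all genes was 6.64%, and the median of the 10 was 0.014. Their genotype effect was negative for 7 of 10 in males (median -0.18) and for 4 of 10 in females (median 0.063). The male effect minus the female effect was positive for 1 of 10, against 51.6% of all genes, with a median of -0.26. By limma 3 of the 10 had an unadjusted p under 0.05 there, all negative, against 7.85% of all genes. The part of these markers and genes in the values of Per1 and Nr1d1 was not tested.

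The level of the outputs relative to Arntl was then compared library by library. The outputs were taken as the mean of log2(value + 1) over the 8 members other than Arntl and Clock, from which the log2 level of Arntl was subtracted. This difference was 1.25, 1.39 and 1.18 in the wild-type males, 1.36, 1.25 and 1.19 in the mutant males, 1.07, 1.05 and 1.37 in the wild-type females, and 1.22, 1.31 and 1.23 in the mutant females. The 4 groups overlapped, and wild-type females 1 and 2 lay below the other 10 libraries. The range over all 12 libraries was 0.34 on the log2 scale. Without Per1 and Per2 among the outputs, the difference ran from 1.12 in wild-type female 2 to 1.45 in wild-type female 3. Arntl itself ranged over 0.37 and the mean of the outputs over 0.16.

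The libraries at the ends of the Arntl range did not hold all outputs at the opposite end. Wild-type female 3, with the lowest Arntl, ranked 11 of 12 for Per1, Per2 and Nr1d2, 10 for Tef and Nr1d1, 8 for Ciart and 7 for Dbp and Per3, where rank 1 is the highest. Wild-type female 2, with the highest Arntl, ranked 12 for Per1, 11 for Per3 and 10 for Dbp, but 2 for Ciart and 3 for Tef. Mutant male 1, with the highest Dbp and Ciart, ranked 9 for Arntl, 7 for Per1 and 8 for Per2. Antiphase to Arntl was described above for Dbp and Nr1d1 only, and time of dissection was not tested by these ranks. The mean of the outputs itself was 10.78 to 10.80 in mutant males, above the 10.70 to 10.76 of wild-type males, and overlapped between genotypes in females, at 10.64 to 10.71 in wild type and 10.69 to 10.76 in mutants. In males 4 of the 8 outputs were higher and 4 lower in mutants, with a median log2 fold change of 0.0058. The largest was that of Dbp, 0.31.

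**Figure D4:**
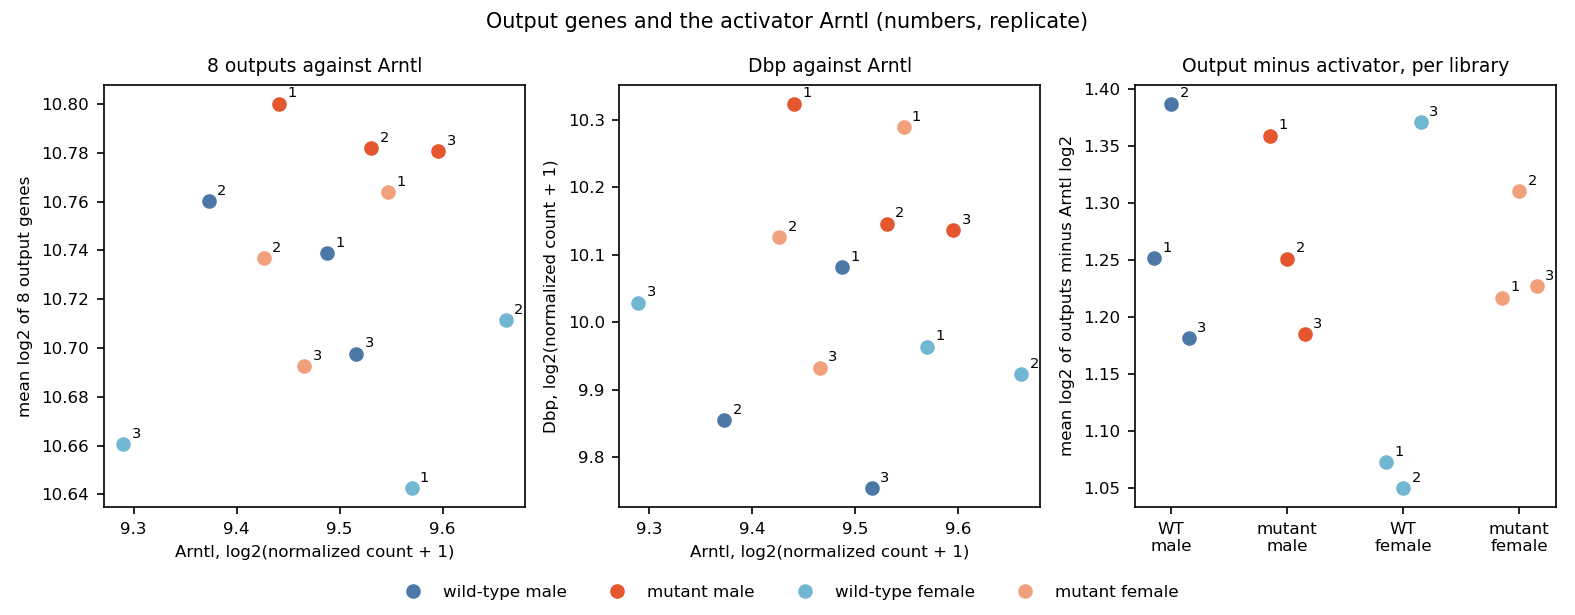
Left and centre, the mean log2 level of the 8 outputs and the log2 level of Dbp against that of Arntl (both axes log2 of normalized count + 1, not starting at 0) in the 12 libraries; right, the outputs minus Arntl by group. Numbers beside the points are replicate numbers; no slope is visible in the left and centre panels, and on the right the values run from 1.05 to 1.39.

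Dbp, the output with the widest daily swing in many tissues, was set against Arntl as a single relation. Over the 12 libraries Pearson's r was 0.011 (p = 0.972) and Spearman's rho 0.0559 (p = 0.869), both by a two-sided permutation test with 100000 resamples. Without wild-type females 2 and 3, the 2 libraries farthest from the median Arntl, r was 0.165 (permutation p = 0.648). After subtracting the group means it was -0.168 (permutation p = 0.607). A relation in antiphase was therefore not detectable between these 2 genes in 12 libraries.

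The slope of each gene on Arntl within groups was estimated across all genes by limma with the log2 level of Arntl as a covariate. Of the 9 members other than Arntl, 0 passed an adjusted p of 0.05, as did 0.0% of all genes, and 0 had an unadjusted p under 0.05, against 10.2% of all genes. The largest slopes were 0.36 ± 0.31 log2 units per log2 unit of Arntl for Per2 and -0.33 ± 0.22 for Per3 (adjusted p = 0.762 and 0.663). For Dbp the slope was -0.20 ± 0.37 (95% interval -1.01 to 0.61), for Nr1d1 0.16 ± 0.17 (-0.21 to 0.53) and for Clock 0.17 ± 0.13 (-0.12 to 0.46). Those of Per1, Nr1d2 and Tef were 0.14 ± 0.23, 0.089 ± 0.18 and 0.11 ± 0.14. Single libraries moved these slopes, that of Per2 to 0.033 without wild-type female 2 and 0.59 without wild-type male 2, and that of Dbp to -0.39 without mutant female 1 and -0.065 without mutant male 1. The 95% intervals of all 9 members included 0 and so allow slopes of either sign. Among them were those of Per2, -0.32 to 1.03, Per3, -0.81 to 0.15, and Ciart, -1.05 to 0.93. The median was 0.11 over the 9 members and 0.0063 over all genes. Counting error in Arntl, with an SD of 0.054 on the log2 scale against 0.115 within groups, pulls such slopes toward 0. By group the SD of Arntl was 0.194 in wild-type females, and 0.076 in wild-type males, 0.077 in mutant males and 0.062 in mutant females.

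By the moderated t of the same slope, the genes most like Arntl within groups of the 12 libraries were none of the clock list. They were Plk2, a kinase induced by synaptic activity, at 0.93 ± 0.14, the noncoding RNA gene Pantr1, at 1.55 ± 0.24, Lmo3, at 0.88 ± 0.14, Rasgrp1, at 1.02 ± 0.17, and Htr1b, a serotonin receptor, at 3.43 ± 0.57. Those most opposed were Hspg2, which encodes perlecan, at -2.05 ± 0.34, Tns1, at -1.36 ± 0.24, Frzb, at -1.58 ± 0.28, Tead1, at -1.22 ± 0.22, and Tshz1, at -1.35 ± 0.25. Their adjusted p-values were 0.158 to 0.167 by limma, so that none of the 10 passed. An unadjusted p under 0.05 was found for 4 of 8 hippocampal neuron markers, 2 with positive and 2 with negative slopes. So it was for 2 of 5 neocortex markers and 2 of 5 red blood cell markers, all with positive slopes. The same held for 4 of 12 activity-regulated genes, 3 positive and 1 negative, and for 0 of 6 oligodendrocyte markers, against 10.2% of all genes. Without wild-type female 3, the library lowest in Arntl, an unadjusted p under 0.05 was found for 2.75% of all genes. The part of these in the values of Arntl was not tested.

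Targets of ROR elements, the class to which Arntl belongs, were given beside it. Npas2, a paralog of Clock, had 384, 476 and 441 normalized counts in the wild-type males, 328, 380.1 and 540.1 in the mutant males, 638, 460.4 and 332 in the wild-type females, and 491, 344 and 588 in the mutant females. Its highest value, in wild-type female 1, was 1.94 times its lowest, in mutant male 1, and all 4 groups overlapped. Its slope on Arntl was 1.83 ± 0.79 (unadjusted p = 0.0401, adjusted p = 0.470, limma). The slopes of Cry1, at -0.13 ± 0.38, and Nfil3, at -0.052 ± 0.34, had unadjusted p-values of 0.737 and 0.879.

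Of 22 further clock genes, among them the cryptochromes and casein kinases of the loop, 0 passed the adjusted threshold by limma in any of the 6 comparisons. In the averaged genotype effect 15 were positive and 7 negative, with a median of 0.027, against 49.9% of all genes positive. An unadjusted p under 0.05 was found for 2 of the 22, or 9.09%, against 8.87% of all genes. The 4 with the largest moderated t were Tsc22d3, at -0.12 ± 0.049 (adjusted p = 0.515), Wee1, at 0.14 ± 0.064 (0.545), Fbxl21, at 0.16 ± 0.075 (0.569), and Bhlhe41, at 0.086 ± 0.048 (0.634). In the slope on Arntl those with the largest moderated t were Tspan4, at -1.33 ± 0.32 (unadjusted p = 0.00136, adjusted p = 0.230), Bhlhe40, at 0.96 ± 0.41 (adjusted p = 0.470), and Npas2. Tspan4 had 362 normalized counts in wild-type female 3, the library lowest in Arntl, and 258 in wild-type female 2, the one highest in it.

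The spread between libraries of the same group was described for each gene as the SD of log2(value + 1) around the 4 group means. It was 0.040 for Clock, 0.044 for Tef, 0.054 for Nr1d1, 0.059 for Nr1d2, 0.079 for Per1, 0.083 for Per3, 0.115 for Arntl, 0.117 for Per2, 0.136 for Dbp and 0.148 for Ciart, against a median of 0.112 over all genes tested. The percentile of the members among all genes ran from 6.10 (Clock) to 60.3 (Ciart), with a median of 35.5, and 6 of 10 lay below 50. Percentiles favour abundant genes, whose counting error is small, and among genes with a mean of at least 50 normalized counts those of Dbp and Ciart were 70.9 and 74.6. In all 10 the spread exceeded the SD that counting alone gives, by 1.63 to 3.06 times. Of the other clock genes Npas2, at 0.366 (percentile 87.0), and Hlf, at 0.215 (71.7), had the widest spread.

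**Figure D5:**
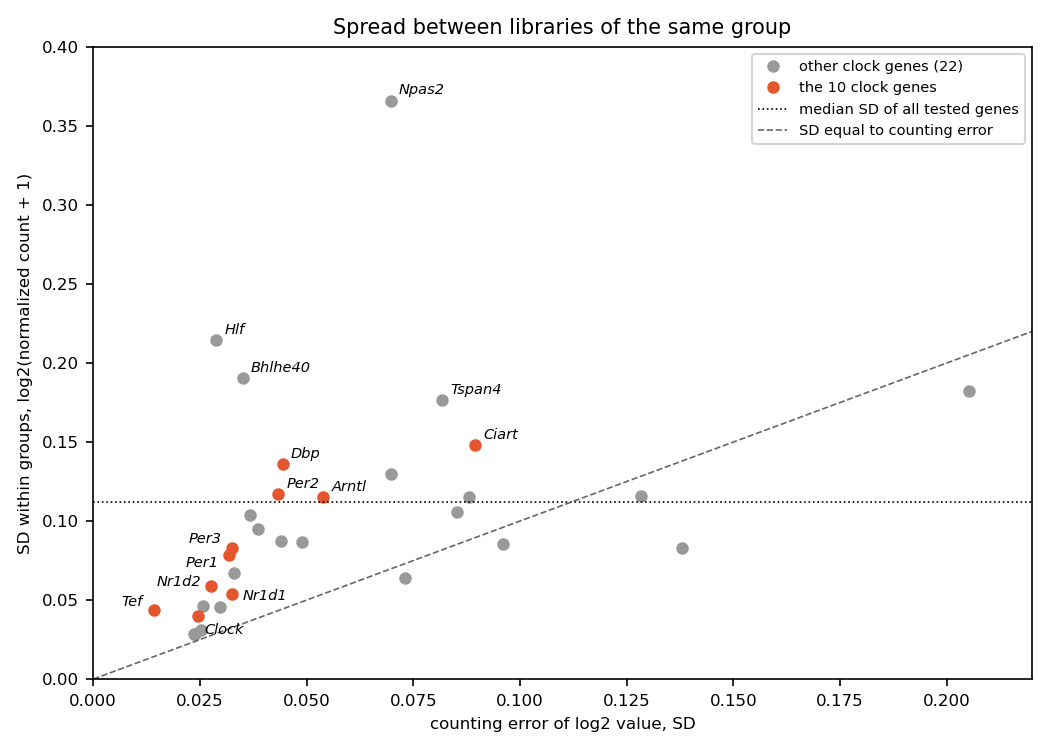
SD of log2(normalized count + 1) within groups (vertical axis) against the SD expected from counting error (horizontal axis) for the 10 genes and 22 other clock genes; the dotted line is the median SD of all tested genes, 0.112, and the dashed line marks equality. All 10 genes lie above the dashed line, 4 of them (Arntl, Per2, Dbp and Ciart) above the dotted one.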

How the data were processed

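Per the labels' protocols, the 12 hippocampal libraries were made with a TruSeq RNA kit (version 2), which keeps no strand. Tools named in the submitters' processing notes, with no role or order, are TopHat2 2.1.0, Trimmomatic 0.35, DESeq2 and HTSeq, and the build is GRCm38. Each deposited value is a normalized signal of an Ensembl gene, in which whole reads are scaled by the library's size factor. The values themselves show it: 100% were whole multiples of 1 step per library (tolerance 1e-06), which equalled the inverse of the median-ratio factor in 12 of 12 libraries. Totals were 23721482 to 33327314 reads per library, and p-values rest on 3 libraries per group. Columns of other samples numbered 0. Symbols, positions and exon lengths are from GENCODE M21 (GRCm38), which matched 45143 of 46078 IDs.

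On log2(value + 1) of the 17496 IDs with a mean of 10 or more, limma 3.58.1 (R 4.3.3) was run with trend and a mean for each group, with Benjamini-Hochberg adjustment over all genes and a threshold of 0.05. Fold changes on this scale understate low genes. The design named this test for values already divided by size factors. Alternatives were edgeR 4.0.16 and DESeq2 1.42.0 on recovered reads, a pseudocount of 0.5, other filters, upper-quartile factors, a replicate block, choroid plexus markers as a covariate, and leaving out libraries. No 2 libraries of a group lay within sampling noise (chi-square per degree of freedom 3.22 to 27.6). The fits were tested on simulated data. By rule the text names all 10 clock genes in each comparison, other clock genes among the 4 with the largest moderated t, and the 5 genes most like and most unlike Arntl. Some of the other genes under these rules are not reported here. Further genes named were chosen after their values were seen. The clock genes and all lists were chosen with earlier results of these data known.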

Additional observations from a re-analysis of the deposited data

How the results depend on the processing

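Settings other than those of the report were tried for every result, and apart from Per1 in the sex effect no clock gene passed or lost the threshold. The number of genes past an adjusted p of 0.05 in the averaged genotype effect, 1 in the report, was 0 with no filter on low genes, with upper-quartile factors and with the replicate block, 82 without the 3 libraries low in choroid plexus markers (which leaves mutant male 1 as the only mutant male, assumed to vary like the other groups), 75 with DESeq2, and 0 to 8 when 1 library was left out. In the same order of choroid plexus and DESeq2, it was 12 and 25 for males, 1 and 9 for females, 2 and 3 for the difference of the effects, and 34 and 48 for sex. Leaving out 1 library gave 0 to 1 for males, females and the difference, and 11 to 18 for sex. For the slope on Arntl it was 111 with DESeq2 and 0 to 19 on leaving out 1 library, with 19 reached without wild-type male 2. The cause of these moves was not tested.

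Replicate numbers did not pair the libraries, since 4 of 18 same-numbered pairs had deviations correlated over 0.1 and 3 of 12 libraries correlated best with their own number. With the replicate block the averaged genotype effect had 0 genes past the threshold, and the slope of Nr1d2 was -0.0014.

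Some values changed sign. Without the 3 choroid-low libraries the averaged genotype effects were -0.0068 (Arntl), -0.00083 (Per2) and 0.012 (Nr1d2), and with choroid plexus markers as a covariate -0.0056 for Arntl. In the same 2 settings the slopes were -0.074 and -0.072 for Per1 and 0.30 and 0.48 for Ciart. Without group means the slopes were 0.052 for Ciart and 0.019 for Dbp. Slopes on Dbp, another predictor and so not the same quantity, were opposite in sign to those on Arntl at -0.24 for Clock, -0.32 for Per1, -0.45 for Per2, 0.30 for Per3 and 0.034 for Ciart. The r of Dbp with Arntl was -0.168 after subtracting group means, -0.0441 without the 3 choroid-low libraries, and -0.138 to 0.158 on leaving out 1 library. Leaving out 1 library gave averaged genotype effects of -0.036 to 0.057 (Arntl), -0.035 to 0.0038 (Nr1d2) and -0.032 to 0.033 (Per1), sex effects of -0.057 to 0.036 (Arntl), -0.00023 to 0.11 (Ciart) and -0.041 to 0.049 (Dbp), and slopes of -0.79 to 0.16 (Ciart), -0.022 to 0.22 (Clock), -0.22 to 0.28 (Nr1d1), -0.13 to 0.17 (Nr1d2), -0.023 to 0.50 (Per1) and -0.16 to 0.17 (Tef). With 3 libraries a group and no label of time, differences of the size of the spread within groups were not detectable, and a daily phase was not measured.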
